A study of Mus musculus with 4 samples.

Results

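The chitinase-like and lysozyme genes were described in PPARγ HT-ChIPmentation of mouse alveolar macrophages (AMs). The genes were Chil3, Chil4, Chil1, Chit1, Lyz2 and Lyz1, 6 of 20923 protein-coding genes. Peaks of both ChIP libraries that overlapped by at least 1 bp were merged, regions with peaks of both libraries were kept as consensus regions, and the centre of each was matched to the closest transcription start site (TSS) of a protein-coding gene (curated RefSeq, mm10). The genes were listed by name, whether or not they had a region, and 26 of 20233 consensus regions were assigned to them.

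All cells were wild type, from C57BL/6J mice aged 9 wk, and came from the bronchoalveolar lavage as sorted aliquots. Chromatin was precipitated with a Diagenode antibody against PPARγ and tagged by a transposase while on the beads. The labels give 2 ChIP libraries (replicates 1 and 2, called library 1 and library 2 here) and 2 input libraries, whose reads served as the control in peak calling and which are not analysed here. With 1 genotype and 1 antibody there was no contrast between conditions, and the labels do not say whether the libraries came from separate mice.

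PPARγ, a nuclear receptor activated by fatty acids, acts as a partner of RXR and is required for AM maturation. Chitinase-like proteins share the fold of chitinases but have lost the ability to cut chitin. Chil3 and its neighbour Chil4 encode such lectins, and Chil3 is made by AMs at rest and by mouse macrophages exposed to interleukin 4. Chil1 encodes a further inactive relative, while Chit1 encodes chitotriosidase, a true chitinase of macrophages. Lysozymes cut the peptidoglycan of bacterial walls. In the mouse Lyz2 is the gene of myeloid cells and Lyz1 that of Paneth cells of the gut, and the neighbouring pair arose by duplication, as did Chil3 and Chil4.

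The starts of the neighbouring copies are shown first, because the peaks differed between copies of similar sequence. Below are aligned promoter stretches of Chil3 and Chil4 (RefSeq, GRCm38.p6, minus strand), with the bases that differ between the copies in capitals. They cover chr3:106167515-106167633 for Chil3, from 69 bp upstream to 49 bp downstream of its TSS, and chr3:106219458-106219577 for Chil4, from 98 bp upstream to 21 bp downstream, because the annotated starts are offset. The stretches differ by 8 substitutions and 1 inserted base.
Chil3 promoter: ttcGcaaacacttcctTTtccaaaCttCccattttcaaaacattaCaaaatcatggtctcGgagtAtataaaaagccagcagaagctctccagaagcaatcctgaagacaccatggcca
Chil4 promoter: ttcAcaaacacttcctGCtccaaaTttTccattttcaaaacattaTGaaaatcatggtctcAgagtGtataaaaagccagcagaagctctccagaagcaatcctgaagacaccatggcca

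The same stretches of the lysozyme genes are chr10:117282223-117282342 for Lyz2 and chr10:117292819-117292938 for Lyz1 (minus strand), both from 70 bp upstream to 49 bp downstream of the TSS. They differ by 5 substitutions, again in capitals.
Lyz2 promoter: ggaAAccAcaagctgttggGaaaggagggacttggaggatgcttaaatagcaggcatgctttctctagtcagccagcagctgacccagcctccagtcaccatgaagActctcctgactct
Lyz1 promoter: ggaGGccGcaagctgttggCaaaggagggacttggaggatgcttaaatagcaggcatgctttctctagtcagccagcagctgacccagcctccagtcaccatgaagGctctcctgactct

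The next sequences are the 151 bases centred on peak summits of the best regions of Chil3, Lyz1 and Chit1, each read along its gene's strand. They are shown because these regions ranked highest of the 26 by the lower of their fold percentiles in both libraries. Capitals mark matches to the motifs described further on. They are, in order, chr3:106172603-106172753 and chr3:106170598-106170748 (minus strand), chr10:117301881-117302031 (minus strand) and chr1:134098098-134098248 (plus strand).
Chil3, library 1 summit: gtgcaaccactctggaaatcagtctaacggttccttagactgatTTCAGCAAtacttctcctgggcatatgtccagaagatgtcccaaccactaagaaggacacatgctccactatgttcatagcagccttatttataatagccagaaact
Chil3, library 2 summit: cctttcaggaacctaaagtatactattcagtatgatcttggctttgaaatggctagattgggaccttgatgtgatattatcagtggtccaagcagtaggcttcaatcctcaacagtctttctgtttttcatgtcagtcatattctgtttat
Lyz1, library 1 summit: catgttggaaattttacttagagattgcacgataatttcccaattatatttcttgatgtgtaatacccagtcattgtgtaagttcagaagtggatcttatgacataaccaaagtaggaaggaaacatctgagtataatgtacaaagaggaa
Chit1, library 1 summit: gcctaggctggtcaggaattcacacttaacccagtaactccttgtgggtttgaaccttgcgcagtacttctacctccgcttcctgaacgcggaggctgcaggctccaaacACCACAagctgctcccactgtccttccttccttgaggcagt

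PPARγ regions lay beside 5 of the 6 genes, against 31.6% of all protein-coding genes. Chil3 had 10 regions, Lyz1 had 7, Lyz2 had 6, Chit1 had 2, Chil4 had 1 and Chil1 had none. Thus 3 of the 6 genes had at least 6 regions, against 4.35% of all protein-coding genes. The cut of 6 was not planned and equals the Lyz2 count, so this share is a description only. At a fold of at least 5 Chil3 had 6 regions, Lyz1 had 4 and Lyz2 had 3. With a reciprocal overlap of 50% they had 4, 3 and 2, while with either library alone all 3 had more than 6. Within each neighbouring pair on chromosome 3 and chromosome 10 the peaks were unevenly spread, in that Chil3 was densely covered while its copy Chil4 was not, and Lyz2 had a region across its TSS while Lyz1 did not. Library 1 had 83787 peaks and library 2 had 28535, and the regions had to be found in both. Library 1 alone gave 80 peaks nearest to these genes and library 2 alone gave 51.

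The authors' fold enrichment (the linear ratio between ChIP and input signal at the summit) ranged over the 26 regions between 2.34 and 20.7 in library 1 and between 3.96 and 14.0 in library 2. Its median was 5.63 in library 1, against 6.81 for all regions, and 5.63 in library 2, against 5.35 for all regions. In both libraries 8 of the 26 regions lay above the median of all regions and 10 lay below it, while 33.9% of all regions lay above it in both. Of the 26, 2 (7.69%), the best regions of Chil3 and Lyz1, were in the top 10% of both libraries, a share near the 5.83% of all regions. At the other end, 9 of the 26 lay below the 5th percentile of all regions in library 1 and 0 did in library 2. Across the 26 regions the folds of the libraries had a Pearson r of 0.806 on the log2 scale and a Spearman rho of 0.676, compared with 0.606 and 0.551 across all regions. These are descriptions, since regions of 1 gene are not independent and library 2 folds fell on steps of 0.279, so that 14 of the 26 regions shared their library 2 value with another.

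**Figure D1:**
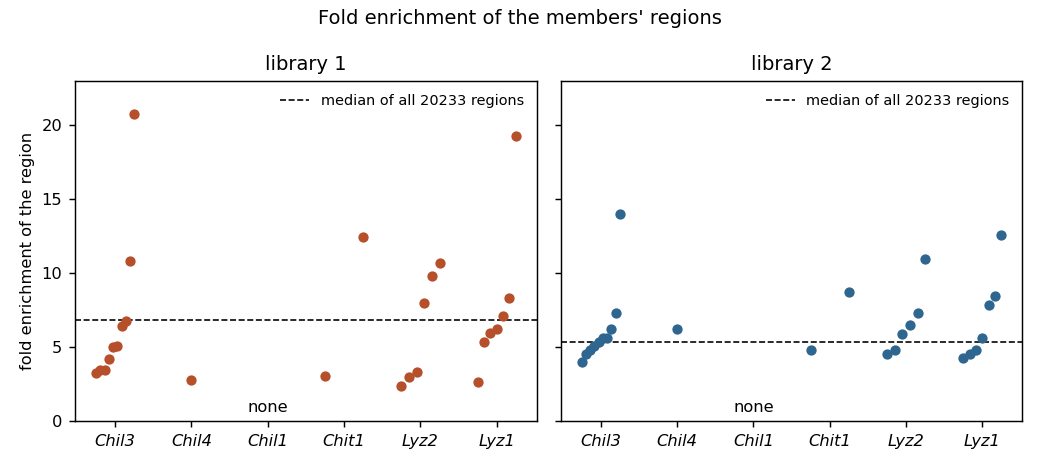
Authors' fold enrichment (vertical axis, ratio of ChIP over input) of the 26 consensus regions by nearest gene, in library 1 (left) and library 2 (right), with 1 point per region and the median of all 20233 regions as a dashed line. Chil3 and Lyz1 reach 20.7 and 19.3 in library 1 and 14.0 and 12.6 in library 2, and Chil1 has no region.

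Chil3, the chitinase-like lectin gene of resting AMs, held the strongest of these regions. The gene lies on chromosome 3 from 106147554 to 106167564 (minus strand, 11 exons). Its best region, chr3:106166628-106173320, was 6693 bp wide against a median of 626 bp for all regions, ran across the TSS into the upstream sequence and was centred 2.41 kb upstream. Its fold was 20.7 in library 1 and 14.0 in library 2, with −log10 q-values of 74.99 and 34.01, and the region ranked 94 of 20233 by the lower of its percentiles in both libraries. This was a chain of several peaks. In library 1 there were 3, with folds of 10.1, 16.5 and 20.7 and with summits 0.241, 3.17 and 5.11 kb upstream of the TSS. In library 2 there were 4, and the strongest of them, with a fold of 14.0, had its summit 3.11 kb upstream, close to the middle peak of library 1. The summits of highest fold in the libraries were thus 2005 bp apart. By q-value the strongest peak of library 1 was the middle one, with a −log10 q-value of 80.57. With summits at most 100 bp apart the best Chil3 folds were 16.5 in library 1 and 14.0 in library 2. The library 1 summit, shown first among the Chil3 summits above, lay in sequence of which 90.1% is soft-masked as repeats, and the library 2 summit in sequence of which 29.1% is.

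A further group of regions lay at and beyond the end of Chil3. The region chr3:106139690-106141696, 26.9 kb downstream of the TSS and outside the gene, had folds of 10.9 in library 1 and 7.31 in library 2 and ranked 2400. Nearly all of it, 99.2%, is soft-masked, and 47.8% of its 50-base words occur elsewhere in the genome. Between it and the gene lay chr3:106141908-106145858 with folds of 6.77 and 5.63, of which 73.9% is soft-masked, and at the gene's end chr3:106146022-106147562 with folds of 6.40 and 6.19, of which 16.2% is. The part of repeats in these 3 regions was not tested. The other 6 regions, in introns 1, 3, 6 and 10, were weak, with folds between 3.23 and 5.06 in library 1 and between 3.96 and 5.63 in library 2, and 3 of them lay in intron 6. In all, regions took up 32.2% of the 53.0 kb nearest to the Chil3 TSS, or 18.9 regions per 100 kb, against a median of 3.54 per 100 kb among genes with a region.

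Chil4, the neighbouring copy (chromosome 3, 106201491 to 106219479, minus strand), had 1 region in 119 kb. This region, chr3:106220316-106220763, was centred 1.06 kb upstream of the TSS and had a fold of 2.75 in library 1 and 6.19 in library 2. This fold was above that of 1.29% of all regions in library 1 and of 67.7% in library 2, and the region ranked 19740. The sequence between 1.19 kb upstream and 1.76 kb downstream of the Chil3 TSS aligned with Chil4 over 2974 bp at 93.4% identity. The Chil4 region itself aligned with a stretch inside the best Chil3 region, where the peaks had folds of 10.1 in library 1 and 6.75 in library 2. Across the 119 kb nearest to the Chil4 TSS library 1 had 6 peaks with folds up to 4.86 and library 2 had 5 with folds up to 6.19, whereas the 53.0 kb of Chil3 held 26 and 21 peaks.

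**Figure D2:**
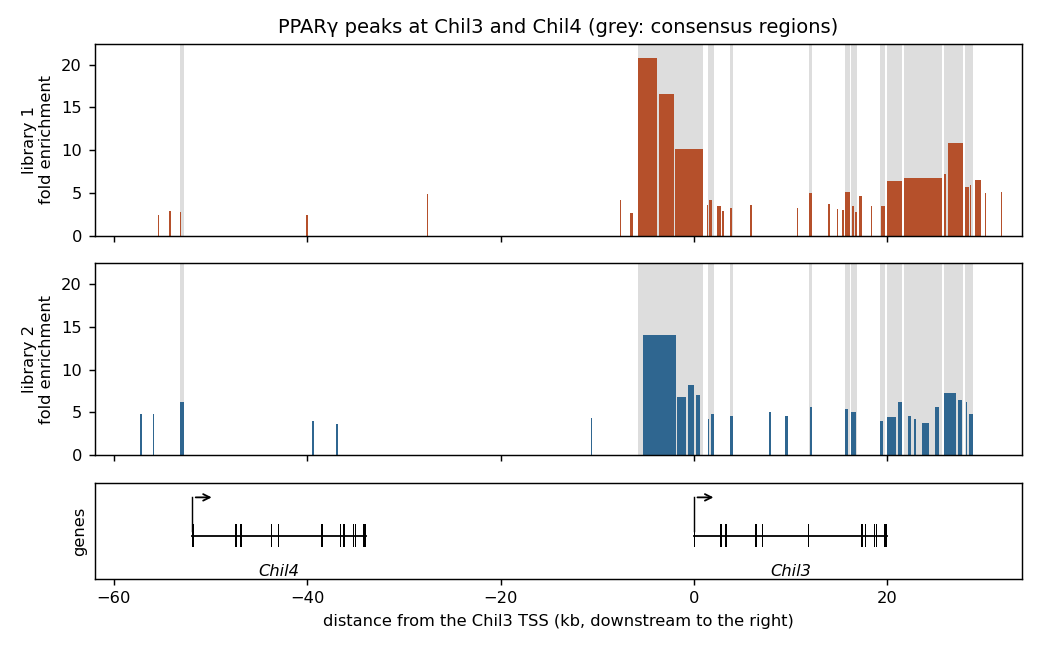
Peaks of library 1 (top) and library 2 (middle) at Chil3 and Chil4, drawn at their width along the distance from the Chil3 TSS (kb) and at the height of their fold enrichment, with consensus regions in grey and exons below (the narrowest peaks are drawn wider than they are). The chain of peaks that starts at the Chil3 TSS reaches 20.7 in library 1 and 14.0 in library 2, and the single Chil4 region reaches 2.75 and 6.19.

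Whether reads could be placed between the copies bears on this pair, because the authors kept only well-aligned reads. Within 1 kb of the TSS, 13.1% of 50-base words at Chil4 and 11.9% at Chil3 occur elsewhere in the genome, compared with 0.205% at Chil1 and 0.871% at Chit1. Over the gene bodies the shares were 9.46% at Chil4 and 7.40% at Chil3, compared with 1.57% at Chil1 and 13.8% at Chit1. The part of read placement in the difference between the copies was not tested. Of 10 Chil3 regions, 7 had an aligned counterpart of at least 100 bp at Chil4, and in 1 of these 7, the best region, a consensus region lay at the counterpart. That was the single Chil4 region described above. The longest aligned stretch of the best region, 2323 bp at 84.2% identity, held no consensus region at Chil4 and only a library 2 peak with a fold of 4.79. At the other 6 neither library had a peak at the aligned Chil4 sequence. In some of these the longest aligned stretch was only part of the region, such as 185 bp for a region of 590 bp. In others it was as long as the region, such as 519 bp for a region of 515 bp.

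Chit1 and Chil1 lie next to each other on chromosome 1. Chit1, the chitotriosidase gene (134111242 to 134151540, plus strand), had 2 regions, both upstream and neither within the gene. The stronger, chr1:134097320-134099543, was centred 12.8 kb upstream of the Chit1 TSS and had folds of 12.4 in library 1 and 8.70 in library 2, at rank 1217. The summits of its strongest peaks were 66 bp apart. The weaker, chr1:134096212-134096617, lay 14.8 kb upstream with folds of 3.03 and 4.79, at rank 19250. Within the Chit1 gene library 1 had 1 peak and library 2 had 0. These regions stood at the edge of a run of peaks that extended from Btg2, an antiproliferative gene whose TSS lies on the other side. The stronger region was 19.3 kb from the Btg2 TSS and 12.8 kb from that of Chit1, so its assignment followed from distance alone. Btg2 had 6 regions, the best with folds of 23.1 in library 1 and 14.8 in library 2, at rank 65, and another, 14.7 kb from its TSS, with folds of 18.4 and 11.2.

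Chil1 (134182156 to 134190031, plus strand) was the 1 gene of the 6 without a region. No peak of either library lay in the gene, and the nearest was 61.6 kb away in library 1 and 76.8 kb away in library 2. The stretch without a peak around the gene was 182 kb long in library 1 and 198 kb in library 2. Only 1.57% of 50-base words in the gene occur elsewhere in the genome. Mybph, the next gene, had no region either.

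**Figure D3:**
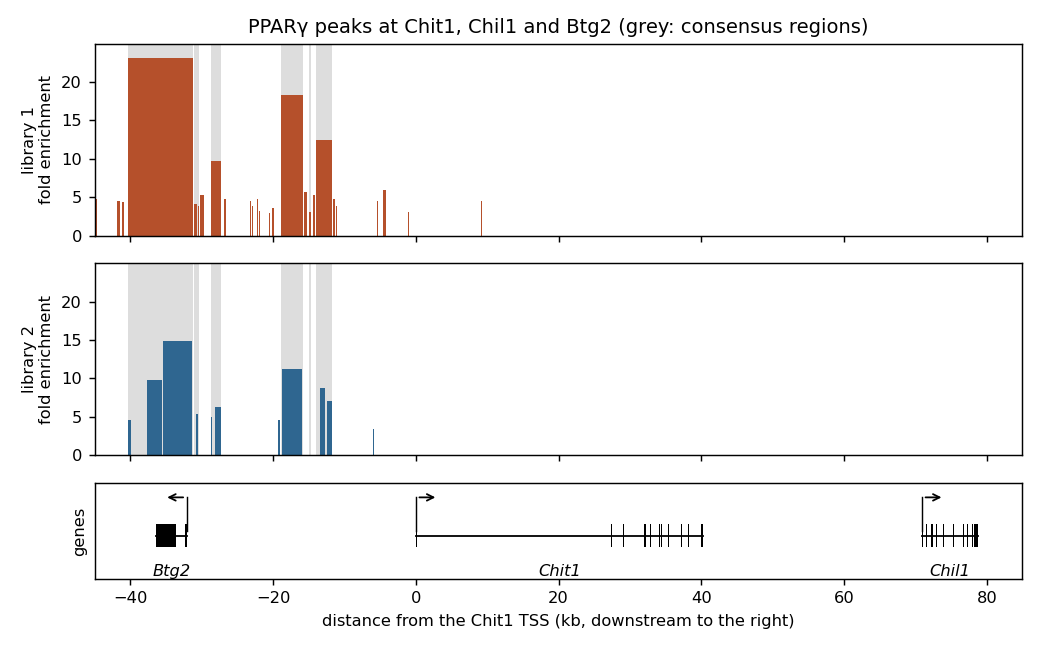
Peaks of library 1 (top) and library 2 (middle) at Btg2, Chit1 and Chil1 along the distance from the Chit1 TSS (kb), at the height of their fold enrichment, with consensus regions in grey and exons below. Peaks crowd around Btg2, where the folds reach 23.1 in library 1 and 14.8 in library 2, the region 12.8 kb upstream of Chit1 reaches 12.4 and 8.70, and no peak is drawn at Chil1.

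Lyz2, the lysozyme gene of myeloid cells, was covered at both ends. The gene lies on chromosome 10 from 117277541 to 117282272 (minus strand, 4 exons). Its best region, chr10:117280635-117283101, ran across the TSS and was centred in intron 1. The fold was 10.7 in library 1 and 10.9 in library 2, with −log10 q-values of 25.4 and 23.2, at rank 2112. The library 1 summit lay 0.028 kb upstream of the TSS, within the promoter stretch shown above, and the library 2 summit lay 0.639 kb downstream. The region chr10:117274982-117278111 overlapped the end of the gene and extended beyond it, with folds of 9.77 in library 1 and 7.31 in library 2, at rank 2845. A region 2.91 kb upstream of the TSS had folds of 7.998 and 6.47. The other 3 regions were weak in library 1, with folds of 2.95, 3.30 and 2.34 in library 1 and 5.91, 4.52 and 4.79 in library 2. With 6 regions in the 27.1 kb nearest to its TSS, Lyz2 had a density of 22.1 regions per 100 kb, a value above that of 98.5% of all protein-coding genes. This was above the 18.9 of Chil3. At a q of 0.001 the densities were 18.5 for Lyz2 and 18.9 for Chil3. At a fold of at least 5 they were 11.1 and 11.3, and with a reciprocal overlap of 50% they were 7.38 and 7.54. Lyz2 stayed above Chil3 with summits at most 100 bp apart (14.8 against 7.54) and by gene body (22.1 against 17.0). The same held for library 1 alone (62.7 against 49.0) and library 2 alone (48.0 against 39.6). The remaining settings left both densities unchanged. The summits of the region across the Lyz2 TSS were 667 bp apart, and with summits at most 100 bp apart this region was not shared.

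For Lyz1, the lysozyme gene known from Paneth cells, the strongest assigned region lay away from the gene. The region chr10:117300471-117303225 lay 8.98 kb upstream of the TSS in intergenic sequence, with folds of 19.3 in library 1 and 12.6 in library 2, −log10 q-values of 62.7 and 29.1 and rank 173. The summits of both libraries were 86 bp apart, and none of its 50-base words occurs elsewhere. This region was also the strongest of the whole lysozyme locus, in which the next gene beyond Lyz2 on the far side, 9530003J23Rik, had no region. Farther upstream lay a pair of regions at 39.3 kb, with folds of 7.11 in library 1 and 8.42 in library 2, and at 40.5 kb, with folds of 6.25 and 7.87. The remaining upstream regions, at 11.4, 28.0 and 31.1 kb, had folds of 2.61, 5.33 and 5.92 in library 1 and of 4.79, 5.63 and 4.24 in library 2. Cpsf6, the next gene on that side, which encodes a factor of mRNA 3′ end processing, had 4 regions. As at Chit1, the assignment of the upstream regions to Lyz1 followed from distance alone.

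At the Lyz1 gene itself (chromosome 10, 117287795 to 117292868, minus strand) there was 1 region, chr10:117288232-117288607 in exon 4, the last, with folds of 8.29 in library 1 and 4.52 in library 2. No peak lay at the Lyz1 TSS, and the nearest was 4.26 kb away in library 1 and 4.45 kb in library 2. The Lyz2 TSS stretch aligned with that of Lyz1 over 1186 bp at 89.1% identity, and of these aligned stretches that of Lyz2 carried peaks of both libraries and that of Lyz1 of neither. Repeated 50-base words made up 10.1% of the 2 kb around the Lyz1 TSS and 7.43% around the Lyz2 TSS. At their ends the genes aligned over 2926 bp at 93.9% identity, and here both had peaks. The Lyz1 exon 4 region aligned over 376 bp at 95.5% identity with the region at the end of Lyz2. Peaks at this Lyz2 stretch had folds of 5.33 in library 1 and 5.91 in library 2. Over the gene bodies, repeated 50-base words made up 19.97% at Lyz2 and 16.4% at Lyz1. The part of read placement in the peaks at both ends was not tested.

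**Figure D4:**
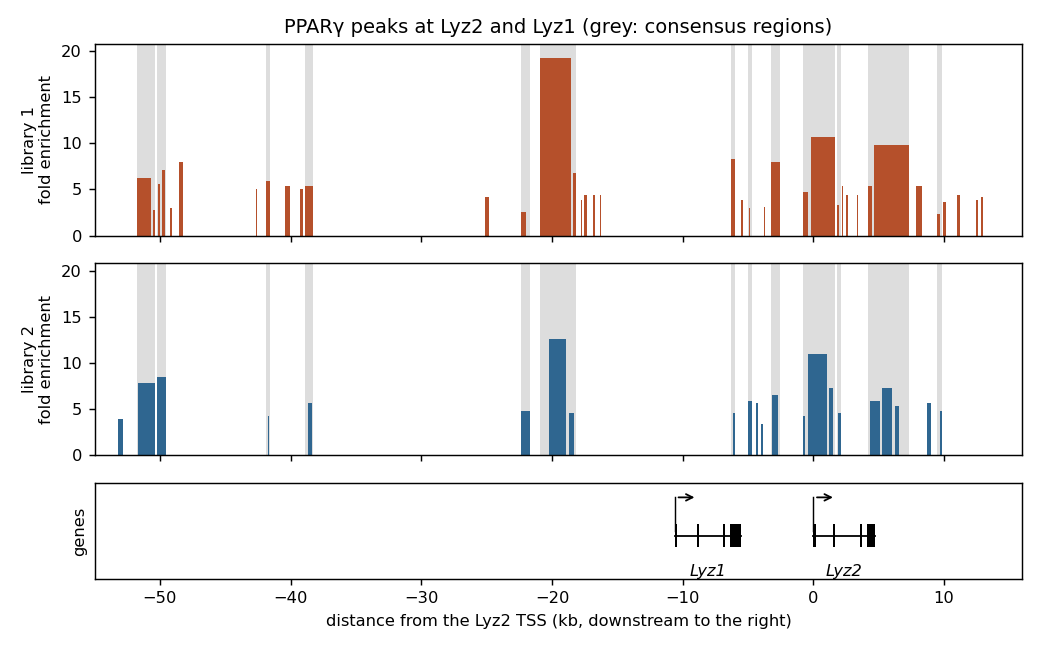
Peaks of library 1 (top) and library 2 (middle) at Lyz2 and Lyz1 along the distance from the Lyz2 TSS (kb), at the height of their fold enrichment, with consensus regions in grey and exons below. The tallest peak, 19.3 in library 1 and 12.6 in library 2, lies upstream of Lyz1, the Lyz2 TSS carries peaks of 10.7 and 10.9, and the Lyz1 TSS carries none.

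**Figure D5:**
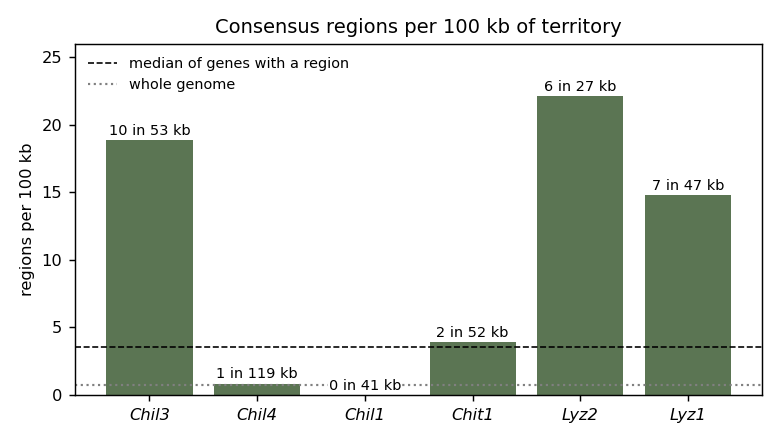
Consensus regions per 100 kb (vertical axis) of the stretch nearest to each gene's TSS, with the number of regions and the length of that stretch above the bars, the median of genes with a region dashed and the value of the whole genome dotted. Lyz2, Chil3 and Lyz1 have 22.1, 18.9 and 14.8 regions per 100 kb, against a median of 3.54 and a genome value of 0.768.

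Most of the regions were distal. Of the 26, 20 lay more than 3 kb from the TSS (76.9%, against 63.5% of all regions), and the regions of Chil3 and Lyz2 across the TSS were the only ones that contained one of these genes' starts. Summits of both libraries were within 100 bp of each other in 12 of the 26 (46.2%, against 52.7% of all regions). Soft-masked sequence took up a median of 16.6% of the 26 regions, against 13.9% of all regions, and exceeded 50% in 6 of the 26, against 4.37% of all regions.

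Motifs of macrophage factors were looked for on either strand, up to 100 bp from the library 1 summit. These were the nuclear receptor site AGGTCA, its direct repeat with 1 base between the copies (DR1, the PPARγ-RXR element, which contains the single site), PU.1 as GAGGAAGT, C/EBP as TTGCNNAA, AP-1 as TGANTCA, RUNX as TGTGGT, STAT as TTCNNNGAA, the CLEAR E-box CACGTG and KLF as GGGNGTGG. At least 1 of the 9 motifs matched in 12 of the 26 regions, against 59.1% of all regions. RUNX matched in 5 (19.2%, against 19.8% of all regions), C/EBP in 4 (15.4%, against 15.1%) and AP-1 in 4 (15.4%, against 9.98%). At the library 2 summit RUNX matched in 5 (19.2%, against 18.8%), C/EBP in 2 (7.69%, against 14.5%) and AP-1 in 2 (7.69%, against 9.53%), so that AP-1 was above the share of all regions at one summit and below it at the other. The single receptor site matched in 1 (3.85%, against 14.9%), and at the library 2 summit in 4 (15.4%, against 15.1%). An exact DR1 matched in none, as in nearly all regions (0.0643% held one). With up to 2 mismatches DR1 matched in none of the 26 at the library 1 summit, against 4.57% of all regions, and in 1 at the library 2 summit, against 5.002%. PU.1 matched in none, against 6.83% of all regions, and in 1 at the library 2 summit, against 5.96%. STAT matched in 1 at either summit (3.85%, against 7.30% and 7.37% of all regions). KLF matched in none, against 7.44%, and in 1 at the library 2 summit, against 7.29%. The CLEAR E-box matched in none at either summit, against 4.33% and 3.86%.

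The 1 region with AGGTCA at the library 1 summit was that in the last exon of Lyz1. Its AGGTCA and AP-1 matches, in capitals, lie within the following 30 bases, chr10:117288304-117288333 (minus strand), and a C/EBP match lies outside them.
Lyz1 exon 4: AGGTCAgttcttcagccaggaagTGATTCA

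At the summits printed above, the Chil3 library 1 summit held a C/EBP match, the Chit1 summit a RUNX match, and the Chil3 library 2 and Lyz1 summits none of the 9. The RUNX letters in the Lyz2 promoter, ACCACA on the strand shown, are interrupted by substitutions in the Lyz1 copy. In the RefSeq promoter table (250 bases upstream to 50 downstream of the TSS), in which all 6 genes matched, RUNX was present in Lyz2 and Chit1 and in 16.8% of all promoters, and STAT in Chil3 and Chil4 and in 8.30%. AGGTCA was present in Chit1 and Lyz1, in 16.3% of all promoters. C/EBP was present in Chil4 and Lyz1 (10.8% of all promoters), AP-1 in Chit1 (7.81%) and KLF in Chil1 and Chit1 (17.6%). DR1, PU.1 and the CLEAR E-box were present in none of these genes. A match is a string of letters and not a measured site.

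Among 14 relatives of the family outside the 6 genes, 6 had a region (42.9%, against 31.6% of all protein-coding genes). Chid1, a lysosomal relative of the chitinases, had 1 region 0.669 kb upstream of its TSS with folds of 10.4 in library 1 and 7.87 in library 2. Ctbs, which encodes the lysosomal di-N-acetylchitobiase, had 1 region at its start with folds of 6.22 and 5.07. Chia1, the acidic chitinase gene next to Chil3, had 2 regions, the better 25.9 kb from its TSS, with folds of 5.63 and 6.19. Lyzl4 had 1 with folds of 11.0 and 4.52, Lalba 1 with folds of 4.74 and 3.68, and Lyzl1 8, the best of them 91.6 kb from its TSS with folds of 10.1 and 12.9. Chil5, Chil6, Ovgp1, Lyzl6, Spaca3, Spaca5, Lyg1 and Lyg2 had none.

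Chil3 is also known as a gene of alternative activation, and of 17 other genes of that state 10 had a region (58.8%, against 31.6% of all protein-coding genes). Mrc1, the mannose receptor gene, had 15 regions, the best with folds of 14.4 in library 1 and 11.8 in library 2. Pdcd1lg2, which encodes the checkpoint ligand PD-L2, had 15, the best with folds of 18.5 and 17.6. Tgm2, the tissue transglutaminase gene, had 10, and Clec7a, which encodes the β-glucan receptor dectin-1, had 9, the best with folds of 13.4 in both libraries. Arg1, the arginase gene, had 3, the best with folds of 7.11 and 5.14. Il4ra, Stat6 and Msr1 had 3 each, Ccl17 had 2 and Ccl22 had 1. Retnla, Ccl24, Mgl2, Clec10a, Alox15, Irf4 and Trem2 had none.

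The label of the cells was compared with the peaks. All 8 AM marker genes (Siglecf, Marco, Car4, Itgax, Pparg, Fabp1, Krt79 and Mertk) had a region, against 31.6% of all protein-coding genes. Of the markers of other cells, 2 of 3 epithelial, 1 of 2 endothelial and 1 of 3 neutrophil genes had a region. None was found at 2 lymphocyte and 2 Paneth cell genes (Defa17 and Mmp7). Counts of so few genes do not test the label. Peaks report binding and not the level of a transcript, so expression of the 6 genes was not measured here. Read counts are not in the peak lists and depth is not used here, so a weak region missing from library 2 cannot be told from one without binding.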

How the data were processed

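PPARγ HT-ChIPmentation of sorted wild-type AMs gave 2 ChIP libraries with a peak list each. Per the labels and the study's methods, the authors trimmed reads with cutadapt, aligned them to mm10 with Bowtie2, filtered them with SAMtools, removed duplicates and poorly aligned pairs, and called peaks with MACS3 for each library against input at a q of 0.05, without pooling. CASAVA and bcl2fastq 2.20.0.422 are also named in the submitters' processing notes. The deposited lists give positions, a score (10 times the −log10 q-value), the fold enrichment as a linear ratio over input, the −log10 p-value, the −log10 q-value and the summit. They hold no counts. The paper provides sequencing quality data, which were not used here, so depth and its precision were not assessed.

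Regions were merged with Python 3.11.15 and numpy 2.4.6, and ranked by the lower of their fold percentiles in both libraries. Positions refer to curated RefSeq transcripts of GRCm38.p6, the assembly of mm10. The stretch of a gene is all positions nearest to its TSS. Copies were aligned with blastn 2.17.0, and 50-base words were counted over both strands of the assembled chromosomes. Counterparts of at least 100 bp were searched from 1 kb past the end to 8 kb upstream of the other copy. Merging and assignment were tested on simulated data. With 2 libraries of 1 group no test between conditions was possible, and no p-value was computed.

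The 6 genes are named whatever their values, with the genes of 3 lists and the next genes on each side. The genes, lists and motifs were chosen with earlier results of these data known. Ear11 matched no gene and was left out. Alternatives were each library alone, a q of 0.001, a fold of at least 5, a reciprocal overlap of 50%, summits within 100 bp, assignment by the higher summit, GENCODE basic transcripts, noncoding genes, a limit of 50 kb, overlap of the gene body with 5 kb on both sides, and other motif windows.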

Additional observations from a re-analysis of the deposited data

How the results depend on the processing

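The number of the 6 genes with a region was 5 with either library left out, with assignment by the higher summit, with GENCODE basic transcripts, with noncoding genes included and within 50 kb. It was 4 at a q of 0.001, at a fold of at least 5, with summits at most 100 bp apart and by overlap of the gene body and 5 kb on both sides, and 3 with a reciprocal overlap of 50%. Of all protein-coding genes, 34.9% had a region with replicate 1 left out, 60.6% with replicate 2 left out, 30.2% at a q of 0.001, 22.7% at a fold of at least 5, 22.4% with a reciprocal overlap of 50%, 24.2% with close summits and 32.9% by gene body. The share was 31.6% with assignment by the higher summit, 30.6% with GENCODE basic transcripts and 29.7% within 50 kb. With noncoding genes included it was 27.8% of all coding and noncoding genes. The 26 regions became 51 with replicate 1 left out and 80 with replicate 2 left out, since single peaks were then counted. They became 14 at a fold of at least 5, 9 with a reciprocal overlap of 50%, 14 with summits at most 100 bp apart and 17 by gene body, and 22 at a q of 0.001. Chil1 had no region under any of these settings, and Chil3, Lyz2 and Lyz1 had at least 1 under each. By gene body, however, the region 8.98 kb upstream of Lyz1 was not counted. The best Lyz1 folds were then 10.7 in library 1 and 10.9 in library 2, those of the region across the Lyz2 TSS. Chil4 lost its region at a q of 0.001, at a fold of at least 5, with a reciprocal overlap of 50% and with close summits, and Chit1 lost both with a reciprocal overlap of 50% and by gene body. With a reciprocal overlap of 50% the best Chil3 folds were 10.9 in library 1 and 7.31 in library 2, because the chain of peaks across its TSS was then not shared. With summits at most 100 bp apart the region across the Lyz2 TSS was lost, and the best Lyz2 folds were 7.998 in library 1 and 6.47 in library 2. No paired analysis was possible because the input libraries have no values here and the results come from no test.

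The lists hold peaks past a threshold only, so an absent peak sets no upper limit on binding. Library 1 had 83787 peaks and library 2 had 28535, and the cause of this difference was not tested. Repeats and near-identical copies limit where reads can be placed, and their part in the values was not tested.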

Other observations

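Other secreted antimicrobial proteins of phagocytes were looked at beside the lysozymes, and 8 of 15 genes had a region (53.3%, against 31.6% of all protein-coding genes). Slpi, the secretory leukocyte protease inhibitor gene, had 6, the best with folds of 8.96 in library 1 and 6.19 in library 2. Wfdc21 had 5, Ear2, an eosinophil-associated ribonuclease gene, had 4, the best with folds of 11.6 and 14.6, and Ear1 and Ear6 had 3 each. Ear10 had 1 with folds of 10.4 and 11.8. Ltf, the lactoferrin gene, and S100a8, a calgranulin gene, had 2 each. Lcn2, Camp, Ngp, Pglyrp1, Bpi, Wfdc17 and S100a9 had none. The Ear genes form a cluster of closely similar copies, among which the placement of reads is uncertain.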
